A study of Mus musculus with 20 samples.

Results

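MYC binding was compared between hematopoietic stem cells (HSC) with and without the kinase mTOR, using the 2 MYC ChIP-seq libraries among the 20 samples of the series. The wild-type library (WT) came from Mx1-Cre-/-;mTORflox/flox mice and the knockout library (KO) from Mx1-Cre+/-;mTORflox/flox mice. All of these mice were adult, carried floxed Mtor alleles and had received poly(I:C), an RNA mimic that induces interferon and so switches on the Mx1 promoter that drives Cre. Poly(I:C) therefore reached the controls too, and Mx1-Cre also acts in other blood cells and in tissues outside the marrow. Cells were sorted by FACS, fixed with 1% formaldehyde for 10 min and immunoprecipitated with an antibody to Myc. All peaks on chromosomes 1 to 19 and X were used, 8774 in WT and 22086 in KO, which together are 30860 of the 368175 peaks in the 12 lists used. The other 10 lists served as annotation. They are H3K27ac and H3K4me3 ChIP-seq, with 1 library per genotype each, and 6 ATAC-seq libraries of 50000 cells, a pair for each of WT, KO and KO MycHet. KO MycHet mice were Mx1-Cre+/-;mTORflox/flox;c-Myc+/flox.

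Each genotype had 1 MYC library, so no test between genotypes was possible, and every difference below is a difference between those libraries with no spread between replicates. Read depth is unknown, and a deeper or cleaner library gives a longer list. Overlap, location and genes bound were therefore compared again with equal numbers of peaks, taking the 8774 KO peaks with the highest score (score of at least 82.92). Brackets give exact Clopper-Pearson 95% intervals, which cover counting error only.

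MYC is a basic helix-loop-helix leucine zipper factor that binds DNA as a dimer with MAX, with a preference for the E-box CACGTG. It binds many promoters that are already active, and it is best known for genes that make ribosomes, nucleotides and other materials for growth. MXD and MNT proteins compete for MAX and repress shared targets. mTOR is the kinase that couples nutrients to translation and represses autophagy, and HSC hold MYC activity low while they are quiescent.

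The promoters of 8 genes that recur below show the E-box in its setting. They were taken from the genes named by rule that had CACGTG in the 250 bases before a start, a peak over those bases and no other annotated gene there. The first 4 had a MYC peak in KO only and the last 4 had one in both libraries. Capitals mark CACGTG, positions count back from the base before the transcription start, and sequences are from RefSeq on GRCm38.p6, which is mm10.
Cdk4: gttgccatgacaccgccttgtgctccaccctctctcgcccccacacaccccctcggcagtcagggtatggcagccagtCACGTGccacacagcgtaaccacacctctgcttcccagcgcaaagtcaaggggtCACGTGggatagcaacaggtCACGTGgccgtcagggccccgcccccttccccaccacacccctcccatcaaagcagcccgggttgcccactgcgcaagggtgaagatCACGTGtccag
Nmd3: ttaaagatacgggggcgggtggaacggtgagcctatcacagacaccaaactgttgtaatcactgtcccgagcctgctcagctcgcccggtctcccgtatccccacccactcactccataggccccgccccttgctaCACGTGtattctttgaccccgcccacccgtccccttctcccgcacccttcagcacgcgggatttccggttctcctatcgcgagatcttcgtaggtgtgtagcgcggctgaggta
Polr3gl: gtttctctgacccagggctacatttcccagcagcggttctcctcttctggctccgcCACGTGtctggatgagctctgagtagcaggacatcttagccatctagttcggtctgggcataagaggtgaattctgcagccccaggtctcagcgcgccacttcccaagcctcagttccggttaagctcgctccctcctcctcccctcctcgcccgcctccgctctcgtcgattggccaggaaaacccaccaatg
Gaa: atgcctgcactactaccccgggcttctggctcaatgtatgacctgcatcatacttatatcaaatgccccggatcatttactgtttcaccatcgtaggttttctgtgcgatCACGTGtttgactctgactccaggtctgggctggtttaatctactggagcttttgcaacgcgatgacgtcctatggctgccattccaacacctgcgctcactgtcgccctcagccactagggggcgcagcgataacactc
Impdh2: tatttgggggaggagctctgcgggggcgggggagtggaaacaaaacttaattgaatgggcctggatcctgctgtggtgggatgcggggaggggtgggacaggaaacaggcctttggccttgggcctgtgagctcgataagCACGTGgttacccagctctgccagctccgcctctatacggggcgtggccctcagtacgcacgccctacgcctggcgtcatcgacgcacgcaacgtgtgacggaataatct
Gtf3c6: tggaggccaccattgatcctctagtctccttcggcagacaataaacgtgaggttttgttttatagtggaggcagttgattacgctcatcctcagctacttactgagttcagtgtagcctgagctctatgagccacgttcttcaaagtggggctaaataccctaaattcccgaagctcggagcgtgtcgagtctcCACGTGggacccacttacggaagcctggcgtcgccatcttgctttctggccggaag
Mxd4: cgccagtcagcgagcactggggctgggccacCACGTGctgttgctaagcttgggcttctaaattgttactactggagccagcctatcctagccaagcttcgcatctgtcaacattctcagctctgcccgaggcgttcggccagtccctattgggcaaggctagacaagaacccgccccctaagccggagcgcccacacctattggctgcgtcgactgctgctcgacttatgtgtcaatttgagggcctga
Eif4a1: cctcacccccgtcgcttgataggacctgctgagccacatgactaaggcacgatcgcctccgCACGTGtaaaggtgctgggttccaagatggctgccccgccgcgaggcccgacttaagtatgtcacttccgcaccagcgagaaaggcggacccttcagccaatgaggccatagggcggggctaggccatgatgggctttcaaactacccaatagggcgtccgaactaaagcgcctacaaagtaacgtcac
They lie on the plus strand at chr10:127063285-127063534 (Cdk4), chr3:69721805-69722054 (Nmd3), chr11:119267713-119267962 (Gaa) and chr9:108560186-108560435 (Impdh2). On the minus strand they lie at chr3:96594182-96594431 (Polr3gl), chr10:40257713-40257962 (Gtf3c6), chr5:34187711-34187960 (Mxd4) and chr11:69672424-69672673 (Eif4a1). Cdk4, the kinase of the G1 phase, held 4 copies between positions -172 and -11, and each of the other genes held 1. Shares of all bound promoters with this motif are given with the motif counts.

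The labels were checked at the targeted gene. Mtor (ID 56717; chr4:148448582-148557685) had a MYC peak at its start in WT (score 221.16, rank 271 of the list) and none in KO. The same position held a peak in all 5 WT libraries and in none of the 7 libraries from mice with Mx1-Cre, so the missing MYC peak there cannot be told apart from the floxed allele itself. H3K4me3, a mark of active starts, lay at 11 of 15 HSC markers in each genotype, among them Procr, Mecom, Hlf and Fgd5. It lay at 53.9% of all genes in WT and 55.0% in KO. Gata2, Meis1 and Hoxa9 lacked it in both genotypes, Kit in KO and Ly6a in WT. Erythroid markers had H3K4me3 at 5 of 10 in WT and 4 in KO, myeloid markers at 4 and 3 of 10, and B-cell markers at 2 and 2 of 10. T and NK markers had it at 1 and 2 of 10, and megakaryocyte and stromal markers at 3 of 8 each in either genotype. MYC peaks lay at few markers of most types, beside 9.80% of all genes in WT and 21.7% in KO. They lay at 1 HSC marker in WT (Meis1) and 2 in KO (Kit and Hoxa9), at 0 and 4 of 10 erythroid markers (Car1, Ermap and the transferrin receptor gene Tfrc among them), and at 0 of 10 myeloid markers in either. With as many KO peaks as in WT, KO had 0 HSC markers and 2 erythroid markers. The part of other cell types in the results below was not tested.

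KO peaks were more numerous and somewhat wider, and the overlap between the lists was partial at every depth. The median width was 374 bp in WT and 455 bp in KO, and the peaks covered 3.98 Mb and 11.9 Mb. A peak was called shared when it overlapped a peak of the other list by at least 1 bp. Of the WT peaks, 45.4% (44.4 to 46.5) were shared, and of the KO peaks 17.7% (17.2 to 18.2). With equal numbers of peaks these shares were 30.0% and 29.0%, and with the 2000 highest of each list 27.8% and 27.2%.

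High-ranking WT peaks had a KO partner more often than high-ranking KO peaks had a WT partner. Of the 100 highest WT peaks 98% had a KO peak, and the share dropped with rank to 32.0% for ranks 4001 to 8774. Of the 100 highest KO peaks 70% had a WT peak, but of ranks 101 to 500 only 41.2% did, and of ranks 15001 to 22086 only 7.80%. KO ranks 501 to 1000 were shared in 43.8%, so sharing in KO did not decline steadily from the top. Part of this gap goes with the length of the lists, since a WT peak meets more KO peaks than the reverse. Against the 8774 highest KO peaks, WT ranks 1 to 100 were still shared in 94% and ranks 101 to 500 in 74.5%, but WT ranks 2001 to 4000 in 31%, close to the 33.4% of the same KO ranks. The difference between the lists with equal numbers thus lay among the highest peaks. Sites away from gene starts with a peak in all 12 lists, which are shared and open by definition, made up 49% of the 100 highest WT peaks. They made up 27% of the 100 highest KO peaks, and 8.25% (WT) and 7.25% (KO) of ranks 101 to 500.

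**Figure D1:**
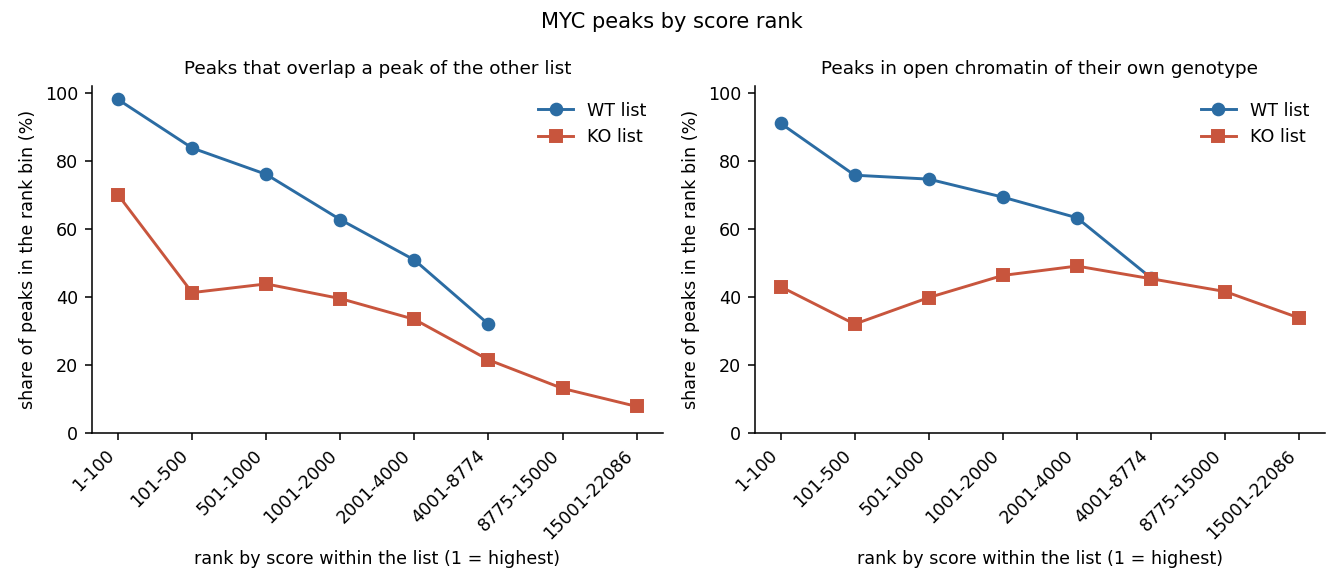
Left, share of MYC peaks that overlap a peak of the other genotype's full list, and right, share that overlap an ATAC-seq peak of either library of their own genotype, in bins of score rank (1 = highest). WT peaks fall from 98% to 32.0% shared, and KO peaks from 70% to 7.80%. The highest KO bins have open shares of 43% and 32%, against 91% and 75.8% in WT. Sites away from gene starts with a peak in all 12 lists make up 49% of the first WT bin and 27% of the first KO bin.

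Peaks were next placed by location. A promoter peak lay within 1000 bp of a gene start, a distal open peak lay elsewhere and overlapped an ATAC-seq peak of its genotype, a distal marked closed peak overlapped H3K27ac or H3K4me3 but no ATAC-seq peak, and an unmarked peak overlapped none of them. H3K27ac marks active promoters and enhancers. In WT, 21.5% (20.7 to 22.4) of peaks were at promoters, 35.3% distal open, 4.22% distal marked closed and 39.0% unmarked. In KO the shares were 19.4%, 22.4%, 5.75% and 52.4%. With equal numbers KO had 23.1% at promoters, 23.2% distal open, 8.63% distal marked closed and 45.1% unmarked, so the promoter share was close to that in WT while the distal open share stayed lower. With ATAC-seq library 1 of each genotype alone, the distal open shares of the full lists were 19.3% in WT and 10.6% in KO. Among the 2000 highest peaks the gap was wider, with 49.6% of WT and 24.5% of KO peaks distal open, and 18.4% against 41.0% unmarked.

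Shared peaks lay at promoters more often than the private peaks of either list. Of the shared WT peaks 34.2% were at promoters, 43.4% distal open and 18.5% unmarked. Of the KO-only peaks 16.1% were at promoters, 18.0% distal open and 61.0% unmarked, and of the WT-only peaks 11.0%, 28.5% and 56.0%. Of the promoter peaks, 71.6% in WT and 31.0% in KO overlapped a promoter peak of the other list. With equal numbers of promoter peaks (1890 in each list) the shares were 50.0% and 48.3%. Counting any partner, promoter peaks were the most often shared in WT (1364 of 1890, beside 1730 of 3094 distal open peaks). In KO they were not, with 1353 of 4274 promoter peaks and 1693 of 4958 distal open peaks shared. Away from gene starts, 44.6% of WT and 45.9% of KO peaks lay inside a protein-coding gene.

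**Figure D2:**
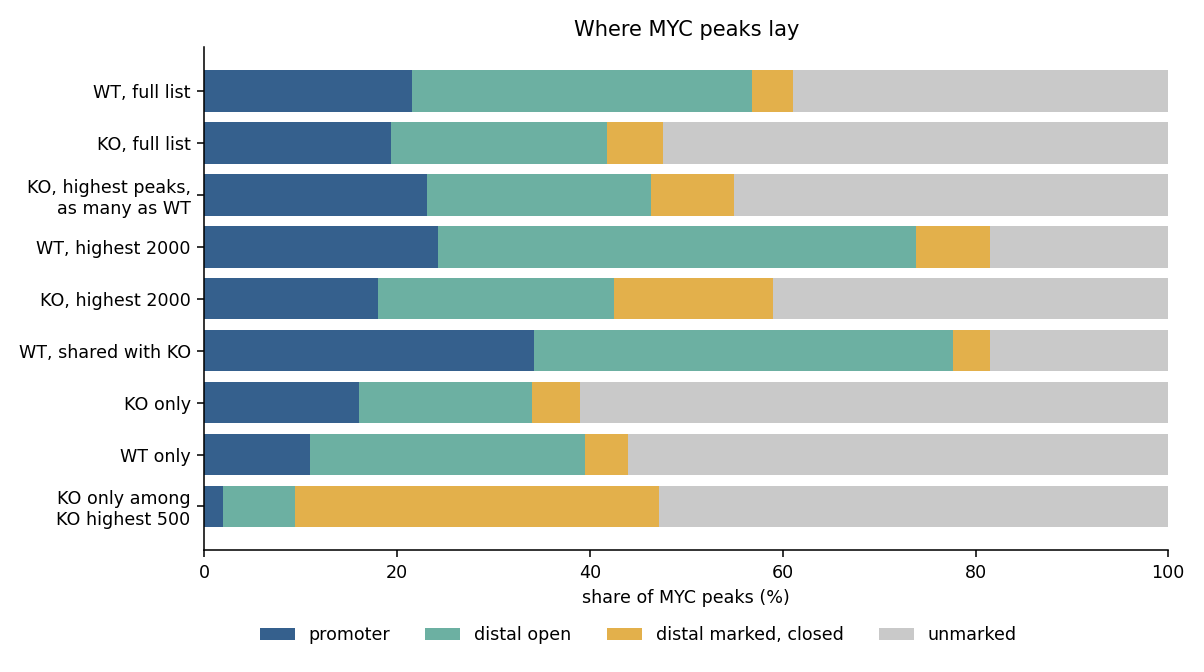
Each bar splits a set of MYC peaks by location (share of peaks, in percent). Shared WT peaks have the largest promoter part of the sets shown (34.2%), and KO-only peaks among the 500 highest of KO the smallest (1.89%).

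The highest KO peaks that WT lacked lay mostly away from promoters and open chromatin. Of the 500 highest KO peaks 265 had no WT peak, and only 5 of these lay at a promoter, while 37.7% were distal marked closed and 52.8% unmarked. An H3K27ac peak of the KO library overlapped 42.6% of them and one of the WT library 14.7%, where the KO list of H3K27ac is the longer and wider of the pair (20036 peaks with a median of 1237 bp, against 10078 peaks of 333 bp). Open chromatin overlapped few of them in any library, from 2.64% in ATAC-seq WT 1 and KO 1 to 8.30% in WT 2 and KO 2. The 235 shared peaks among the same 500 were open in 51.1% to 64.7%, depending on the library. At the reverse, 67 of the 500 highest WT peaks had no KO peak, and 17.9% to 32.8% of those were open, 10.4% lay at promoters, 37.3% were distal marked closed and 26.9% unmarked. An H3K27ac peak of the WT library overlapped 53.7% of them and one of the KO library also 53.7%, against 14.7% and 42.6% of the KO counterpart. Their distal marked closed share was close to that of the KO counterpart, their open share higher and their unmarked share lower. Input signal, repeats and copy number at these KO peaks were not tested.

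Over all ranks, KO-only peaks overlapped an ATAC-seq peak in 17.3% (WT 1), 33.6% (WT 2), 18.6% (KO 1), 32.6% (KO 2), 31.9% (KO MycHet 1) and 31.4% (KO MycHet 2) of cases. WT-only peaks did so in 17.6%, 38.1%, 17.0%, 36.2%, 35.2% and 34.9% of cases in the same order. With equal numbers of peaks WT-only peaks were open more often than KO-only peaks in every library, in 24.8% against 18.7% for WT 1, 46.0% against 32.6% for WT 2, 24.9% against 20.3% for KO 1 and 44.6% against 31.6% for KO 2. For the KO MycHet libraries the shares were 43.6% against 31.2% and 43.4% against 30.7%. The low values are those of the libraries with short lists, 17303 peaks in WT 1 and 19174 in KO 1 against 47214 to 72149 in the others. KO peaks shared with WT were open in 59.7% to 77.1%. With 2 libraries against 2, an exact permutation test cannot go below a two-sided p of 0.33, so none was used. KO-only promoter peaks were open in 93.5% of cases in WT 2 and 91.6% in KO 2, and in 76.0% in WT 1 and 75.4% in KO 1. H3K4me3 of the WT library overlapped 89.5% of them. H3K27ac overlapped 27.5% in WT and 79.4% in KO, where the KO list is the longer and wider. Most KO-only MYC peaks at promoters thus lay at starts that were open and held H3K4me3 in WT libraries too, but most had no H3K27ac peak in WT.

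**Figure D3:**
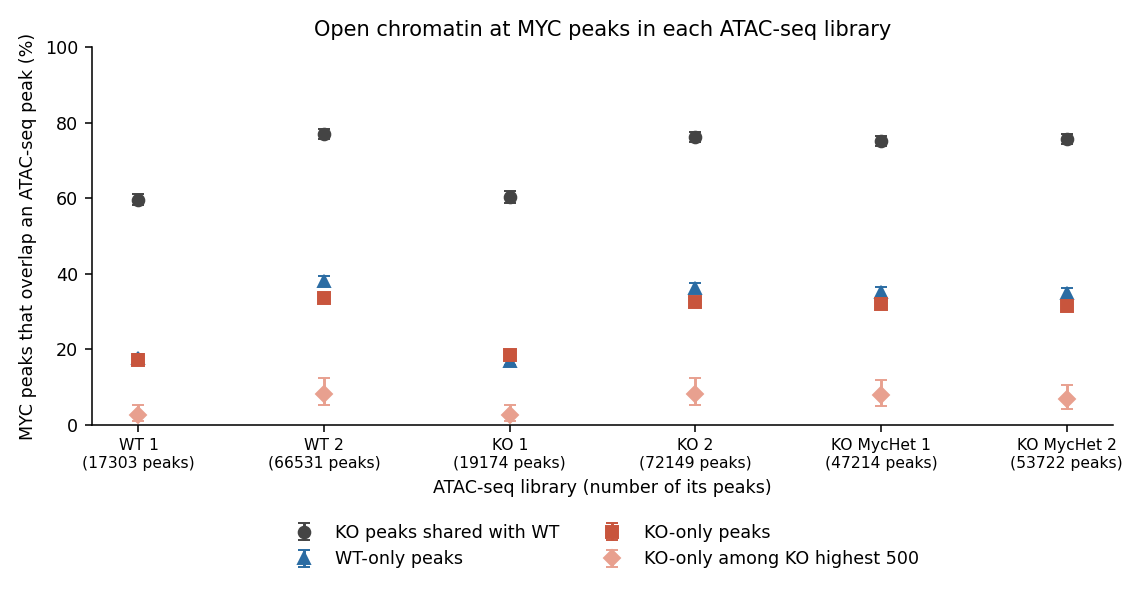
Share of MYC peaks that overlap a peak of each ATAC-seq library, with exact 95% intervals for counting error. KO-only and WT-only peaks lie between 17.0% and 38.1% in every library, shared KO peaks between 59.7% and 77.1%, and the KO-only peaks among the 500 highest KO peaks at or below 8.30%.

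Where a peak was present in both libraries, its rank was only loosely kept. Over 4019 pairs of overlapping peaks the Spearman correlation of the scores was 0.32, a description across peaks that carries no p. It was 0.44 for 1749 distal open pairs, 0.37 for 1378 pairs at gene starts and 0.13 for 738 unmarked pairs. With equal numbers of peaks it was 0.32 over 2635 pairs, and with the 2000 highest of each list 0.37 over 556 pairs. With a reciprocal overlap of 50% it was 0.49 over 2672 pairs. The KO peak was the wider of the pair in 81.7% of cases, with medians of 690 bp and 466 bp. A wider peak meets more partners, and its part in the overlap counts was not tested.

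**Figure D4:**
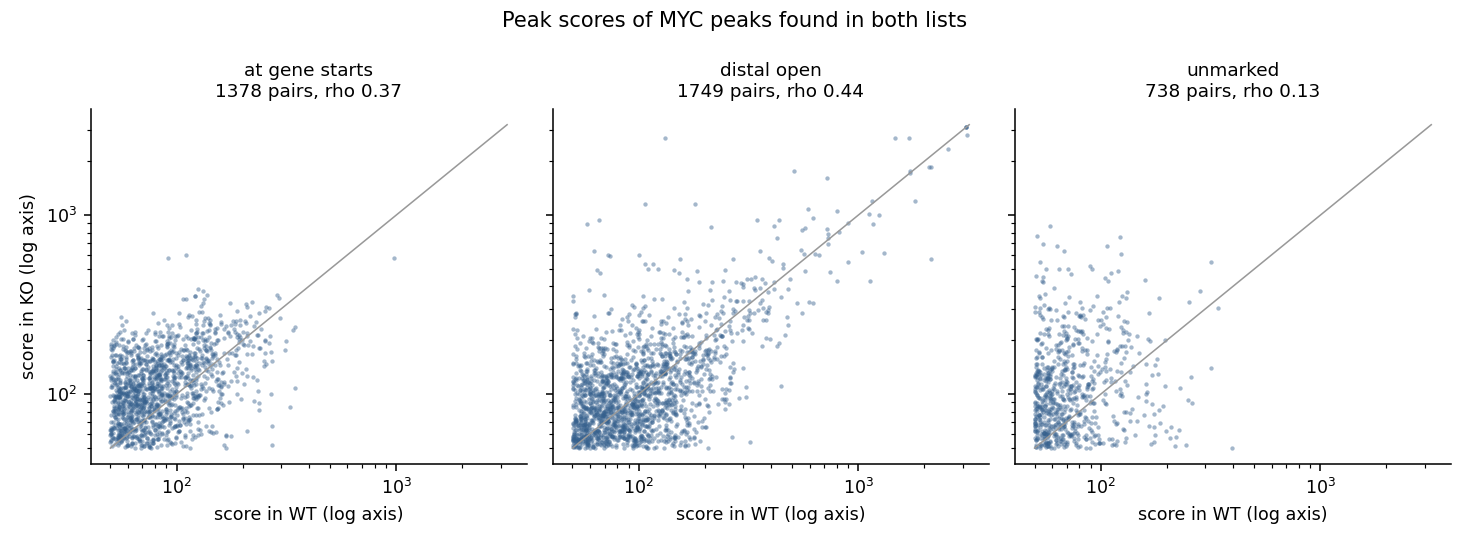
Scores of MYC peaks found in both lists, WT on the horizontal and KO on the vertical axis (both logarithmic, unit not stated by the authors), for pairs at gene starts, distal open and unmarked; distal marked closed pairs are not drawn. The grey line marks equal scores, and rho is 0.37, 0.44 and 0.13.

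The genes bound were then counted among 21631 protein-coding genes. A gene was called bound when a peak lay within 1000 bp of a listed transcription start, or of either annotated end for the 4357 genes with no listed start. In WT 2120 genes were bound (9.80% of all genes) and in KO 4697 (21.7%). Of these, 1653 (7.64%) had a peak in each library, 3044 (14.1%) were KO only and 467 (2.16%) WT only. KO thus held 78.0% of the genes bound in WT, and WT held 35.2% of those bound in KO. With equal numbers of peaks KO had 2384 bound genes (11.0%), 1191 (5.51%) shared, 1193 (5.52%) KO only and 929 (4.29%) WT only. The ratio of KO-only to WT-only genes was 6.52 in full lists, 1.28 with equal numbers and 0.626 with the 2000 highest peaks of each list, where 579 genes (2.68%) were bound in WT and 443 (2.05%) in KO. Of those, 215 (0.994%) were shared, 228 (1.05%) KO only and 364 (1.68%) WT only. With equal numbers of promoter peaks KO had 2232 genes (10.3%), of which 1153 (5.33%) were shared and 1079 (4.99%) KO only, with 967 (4.47%) WT only. The excess of genes in KO was thus small once the lists had equal length, and its direction changed at the top of the lists.

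Bound genes were mostly active genes in each class. H3K4me3 lay at 96.8% of the shared, 92.9% of the KO-only and 88.4% of the WT-only genes in WT, against 53.9% of all genes. H3K27ac of the KO library lay at 93.5%, 84.5% and 77.3% of the 3 classes, and that of the WT library at 60.3%, 34.0% and 36.8%. Of the 100 genes with the highest KO score 82% were also bound in WT, and of the 100 highest WT genes 93% were bound in KO. Scores of the 1653 shared genes had a Spearman correlation of 0.42. Peaks centred close upstream of the start, with a median of -141 bp in WT and -64.5 bp in KO, and KO-only peaks at -48 bp.

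The genes that ranked high in both lists were of mixed function. Scores are printed below for WT and KO, but they share no known scale, so a higher KO score does not measure stronger binding. KO scores ran higher over the 4019 pairs of overlapping peaks (median 103.77, against 82.12 in WT). Ranked within the 1653 shared genes, KO had the higher position in 824. Akt1s1 (ID 67605; chr7:44849224-44855421), which encodes the mTORC1 inhibitor PRAS40, scored 253.65 in WT (rank 186) and 292.48 in KO (rank 492), and its peak also lay at the start of Tbc1d17. Tspoap1, a binding partner of the mitochondrial translocator protein TSPO, scored 293.31 in WT and 346.48 in KO. Among KO-only genes with H3K4me3 in both genotypes, the highest scores in the lists of equal length were those of Clcn4, a chloride-proton exchanger (521.16), and Polr3gl, a subunit of RNA polymerase III (483.79, rank 162). Ifi44l, an interferon-induced gene (339.56), and Spop, an adaptor of a ubiquitin ligase (319.22), followed. Under the same condition on H3K4me3, the highest WT-only genes were Ctla2a, a cysteine protease inhibitor (238.28), Paqr7, a membrane progestin receptor (234.98, where the WT peak overlaps a KO peak that lies outside the window of the gene start), and B4galt7, a glycosyltransferase of proteoglycan linkers (194.75). Egr1, an early response factor of stem cell quiescence, scored 188.72 in WT and 52.88 in KO, at rank 401 and rank 19922. These are different peaks at opposite ends of the gene, which has no listed start, so they are not values of 1 site.

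Function lists were set beside these backgrounds, WT first, then KO in full, then KO with equal numbers of peaks. Olfactory receptors, a list of silent genes with 5 members bound in each full list, are left out of the tallies that follow. All the other 22 lists had more members bound in KO than in WT with full lists. With equal numbers 17 had more in KO, 1 had the same number and 4 had fewer. With the 2000 highest peaks 4 had more in KO, 6 the same number and 12 fewer, so no list kept its excess in KO by more than 2 genes at the top of the lists. The 12 include the mTOR pathway, with 5 members in WT and 4 in KO, where the WT members include the targeted gene Mtor itself. In all genes the KO count was 2.22 times that in WT in full lists and 1.12 times with equal numbers. With the 2000 highest peaks all genes also had fewer bound in KO (443) than in WT (579). Among genes with H3K4me3 in both genotypes, 17.3% were bound in WT and 19.8% in KO with equal numbers. The lists below are grouped by role. Several peaks named there lie at a promoter shared with a neighbour and count for both genes: those of Fbl (Dyrk1b), Hnrnpa1 (Cbx5), Ruvbl2 (Gys1), Aurka (Cstf1), Nop16 (Higd2a), Eif2s1 (Atp6v1d), Vars (D17H6S56E-5) and Mepce (Zcwpw1).

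MYC core targets, genes found under MYC in many cell types, were bound at 8 of 50 in WT, 34 in KO and 24 in KO with equal numbers. The 20 KO-only genes with equal numbers included Cdk4 (KO score 198.67), the nucleolar protein gene Ncl (153.18), the bHLH factor Tfap4 (151.47), Pcna, Dkc1, Gnl3 and Shmt2. The peak at Cdk4 spanned chr10:127062452-127063630 and so covered the 4 E-boxes printed above. Nme1, a nucleoside diphosphate kinase, was bound in both (77.1 in WT, 177.42 in KO), as were Fbl, the rRNA methyltransferase fibrillarin (135.74 and 158.02), and Hnrnpa1, a splicing factor (141.49 and 258.67). Odc1, the rate-limiting enzyme of polyamine synthesis and a long-known MYC target, was the 1 WT-only member (115.31, rank 1395). Its peak was centred 896 bp after the start, and KO had none within the window. With the 2000 highest peaks the list had 4 members in WT and 3 in KO, so its excess in KO lay below rank 2000, both within the 8774 highest KO peaks and beyond them.

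In the MYC network itself 7 of 28 genes were bound in WT, 15 in KO and 9 with equal numbers. Mxd4, a MAX partner that opposes MYC, scored 167.48 in WT and 238.86 in KO, and Mnt, another such repressor, 123.09 and 172.27 at different peaks, centred at -713 bp and 1360 bp from the start. Ruvbl2, a helicase of MYC cofactor complexes, scored 184.87 and 221.78. Ep400, a chromatin remodeller (141.96), Aurka, a mitotic kinase that stabilises MYC proteins (168.86), Max and Trrap were bound in KO only. Zbtb17, which encodes the MYC partner MIZ1, was bound in WT only, at a score of 50.26 near the end of the list. No MYC peak lay at the start of Myc in either library.

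Genes that make ribosomes were counted in separate lists for assembly, rRNA synthesis and ribosomal proteins, beside the ratio of 1.12 for all genes with equal numbers. Ribosome biogenesis had 20 of 70 members in WT, 49 in KO and 29 with equal numbers, but 5 in WT and 2 in KO with the 2000 highest peaks. Nop16 (187.67) and Nmd3, the export adaptor of the large subunit (160.05), were KO only, and Nat10, an RNA acetyltransferase, scored 69.56 in WT and 200.13 in KO. Imp4, of the small subunit processome, scored 104.17 and 134.08, at a promoter shared with Ccdc115. Rrp9 was WT only (111.55), with a peak that also lay at Parp3. RNA polymerases I and III had 3 of 37, 18 and 11, with Polr3gl, Polr3k (183.58) and Taf1c (105.39) in KO only. Gtf3c6, a subunit of the polymerase III factor TFIIIC, was bound in both and scored 337.72 in WT (rank 95) and 227.55 in KO (rank 885). Cytosolic ribosomal proteins had 26 of 85, 47 and 23, and mitochondrial ribosomal proteins 17 of 78, 40 and 14. Rps29 was shared (192.59 and 151.35), Rpl27 (246.32) and Rps19 (182.43) were KO only, and Rpl32 (69.74) and Rplp2 (65.77) WT only.

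Aminoacyl-tRNA synthetases, which charge tRNAs with amino acids, had 6 of 39 in WT, 28 in KO and 19 with equal numbers. Mars1 (142.7 and 181.5) and Vars (74.12 and 141.11) were shared. Lars (134.05) and Sars2 (133.02) were KO only, the latter at a promoter shared with Mrps12, and Pars2 was WT only (95.41). Translation factors had 14 of 50, 30 and 17. Eif3b scored 215.45 in WT and 197.2 in KO, and Eif2s1 130.51 and 158.74.

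Nucleotide and polyamine synthesis had 4 of 40 in WT, 18 in KO and 13 with equal numbers. Impdh2, the rate-limiting enzyme of guanine nucleotide synthesis, was bound in both (119.04 in WT, 89.67 in KO), as was Rrm1, a ribonucleotide reductase subunit (95.6 and 97.62). Amd1, of polyamine synthesis (117.55), and Paics, of purine synthesis (113.06), were KO only. The Paics peak lay at a promoter shared with Ppat, the first enzyme of purine synthesis, so a single peak counts for both genes. Glycolysis had 3 of 34, 17 and 8, with Tigar (145.88), Ldha (120.2) and Pgam1 (109.37) in KO only and Aldoa in WT only (58.2). With the 2000 highest peaks glycolysis had 0 members in either library.

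DNA replication had 10 of 47, 25 and 16, and cell cycle and mitosis 10 of 51, 19 and 12. Cdc45, of the replicative helicase, scored 230.52 in WT and 253.91 in KO, at a promoter shared with Ufd1. The helicase subunits Mcm7 (171.6) and Mcm4 (149.41) and the origin factor Orc1 (120.06) were KO only, each at a promoter shared with a neighbour (Ap4m1, Prkdc and Prpf38a). Rb1, the brake on entry into the cycle, was WT only (79.3).

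In the mTOR pathway 14 of 58 genes were bound in WT, 25 in KO and 17 with equal numbers. The WT count includes the targeted gene Mtor itself. Eif4ebp2, a translation repressor that mTOR inactivates, scored 125.34 in WT (rank 1140) and 388.29 in KO (rank 266), and Tsc1, an inhibitor of the pathway, 51.0 and 166.51. Flcn, which acts on the Rag GTPases, was KO only (167.57), and Eif4ebp1 (55.76) and Mtor were WT only. Genes of MNK, ERK and eIF4E signalling had 6 of 28, 14 and 8. Mknk2, a kinase of the cap-binding protein eIF4E, scored 82.59 in WT and 250.65 in KO, and Eif4a1, the helicase of the cap complex, 114.45 and 155.36. Lysosome and autophagy genes, which mTOR restrains, had 6 of 55, 27 and 11. Tfe3, a factor that drives them (159.61), and Gaa, the lysosomal glucosidase (134.44), were KO only. Among genes with H3K4me3 in both genotypes, 9.43% of this list were bound in WT and 20.8% in KO with equal numbers. The shares of all such genes were 17.3% and 19.8%, so the KO share was near the background.

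P-TEFb and elongation had 12 of 37, 23 and 14, with Supt5 (203.78 and 189.21) and Mepce (128.1 and 174.85) shared. Chaperones were the list most often bound in WT, 19 of 40, with 29 in KO and 21 with equal numbers. Hsp90b1 scored 189.31 and 215.52, and Atf4, the factor of the integrated stress response, 90.68 and 191.22. Proteasome genes had 15 of 45, 28 and 12, and the respiratory chain 18 of 83, 34 and 19. Clock and other E-box genes had 9 of 30, 14 and 9, with Arntl, which encodes the clock factor BMAL1, at 95.28 in WT and 219.71 in KO. Interferon response had 3 of 43, 14 and 6. HSC identity had 7 of 50, 12 and 6, where Nfe2 (128.61 and 208.73) and Foxo3 (89.96 and 113.06) were shared and Runx1 (120.42) and Msi2 (121.32) KO only. Olfactory receptors, silent in blood, had 5 of 1106 in WT, 5 in KO and 2 with equal numbers.

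**Figure D5:**
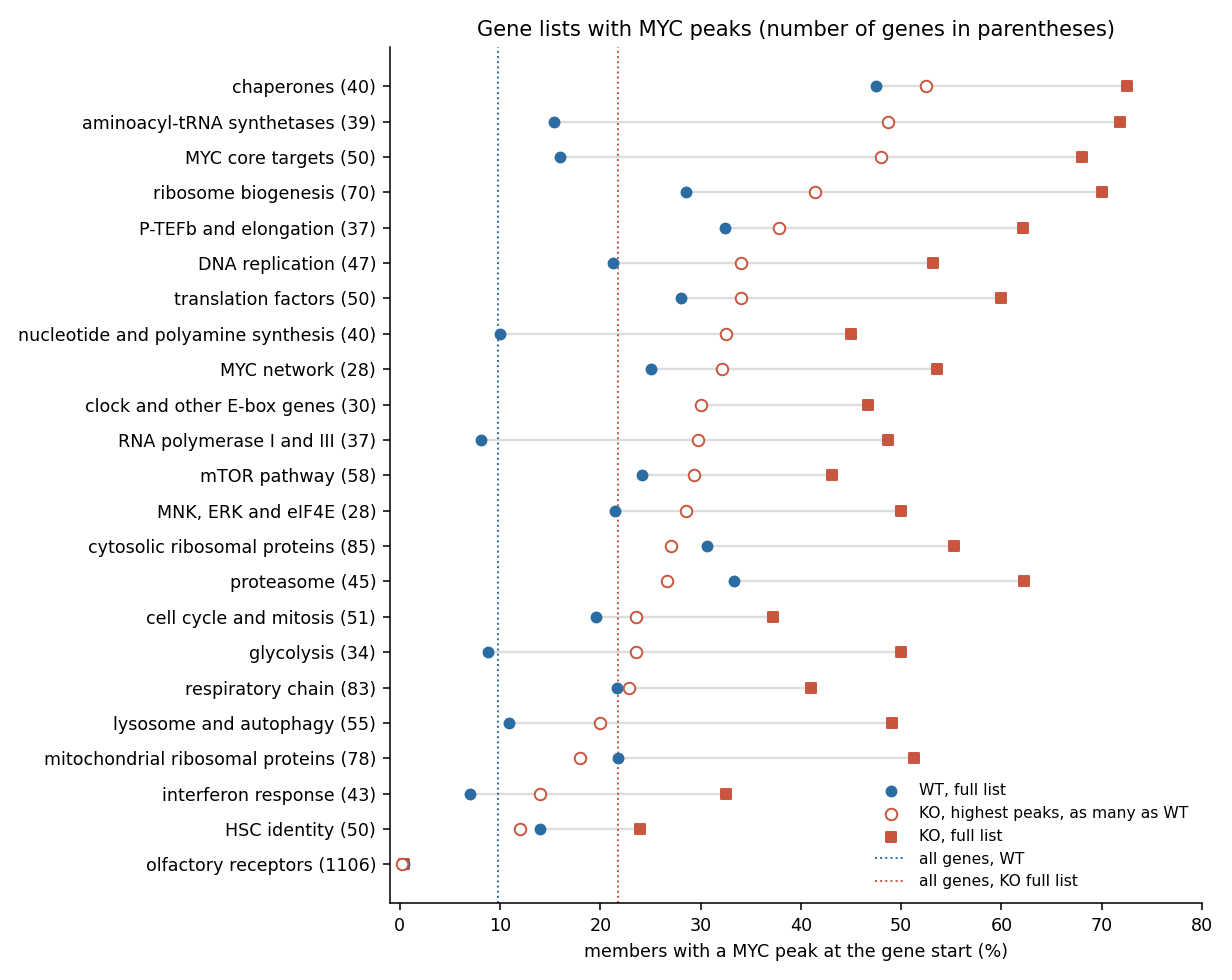
Share of each list's members with a MYC peak at the gene start in WT, in KO, and in KO limited to as many peaks as WT. Dotted lines give the share of all genes in the full WT (9.80%) and KO (21.7%) lists. Genes with H3K4me3 in both genotypes, not drawn, had higher shares (17.3% and 38.4%). For KO with equal numbers, also not drawn, the share was 11.0% of all genes and 19.8% of genes with H3K4me3 in both. The WT and equal-number KO points lie far apart for MYC core targets (8 and 24 of 50) and aminoacyl-tRNA synthetases (6 and 19 of 39), and close for the respiratory chain (18 and 19 of 83).

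Sequences of 21045 promoters, each 250 bases before to 50 after a listed start, were searched for CACGTG on both strands, which read alike. It was present in 7.91% of all promoters, 11.3% (9.81 to 13.0) of those bound in both, 11.1% (10.0 to 12.3) of KO-only, 10.3% (7.58 to 13.5) of WT-only and 6.92% (6.53 to 7.32) of unbound promoters. Among promoters with H3K4me3 in both genotypes the shares were 11.3%, 11.5%, 11.4% and 9.79% in the same order. The intervals of the 3 bound classes overlapped there, and the interval of the unbound class overlapped each of them. With equal numbers of peaks these promoters had shares of 12.01% (both), 9.93% (KO only), 10.37% (WT only) and 10.34% (unbound). In a setting added after the data were seen, a peak had to lie over the promoter sequence itself. The shares at promoters with this mark were then 11.5% (both), 12.4% (11.0 to 13.8; KO only), 13.9% (WT only) and 9.62% (8.95 to 10.3; no such peak). There the KO-only interval lay above that of promoters with no such peak, while those of the other classes overlapped it. An excess of CACGTG at bound promoters with this mark thus depended on the setting, and no test was made. The other motif shares given here are for the full lists. The ETS motif CCGGAAG, on either strand, was in 22.5% of shared, 25.1% (23.4 to 26.7) of KO-only, 23.0% of WT-only and 16.3% (15.4 to 17.2) of unbound promoters with H3K4me3 in both. The GC box GGGCGG was in 64.2%, 70.7%, 62.5% and 66.2% of these classes. These matches describe the letters in the window and do not show that a factor was bound there.

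Away from gene starts, 909 shared KO peaks, 647 KO-only peaks and 356 WT-only peaks were open in all 6 ATAC-seq libraries. The highest of the KO-only peaks lay at chr14:118982084-118982991 inside Uggt2 (score 569.5, rank 107), where every list but that of MYC in WT had a peak, and at chr5:139195988-139197205, 4040 bp from a start of Sun1 (361.65). The highest of the WT-only peaks lay at chr6:47685017-47685800 (241.7, rank 216) and at chr14:104715781-104716085 (215.9).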

How the data were processed

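The authors deposited 1 peak list per library with 5 columns, chromosome, start, end, a name in the style of the MACS peak caller and a score. The authors deposited the score as it stands, no score is below 50, and its scale is not stated. It was used to rank peaks within a list or beside a score level named in the text. WT and KO scores printed for a gene were not put on a common scale. The build was mm10 and CASAVA was a tool used, per the submitters' processing notes. The sources used here do not give the aligner, the peak-calling settings, an input control or the depth. RNA-seq samples were not analysed here.

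Peaks on chromosomes 1 to 19 and X were compared with Python 3.11.15, numpy, pandas and scipy, with overlaps checked against bedtools 2.31.1 and on simulated peaks. Genes and promoter sequences came from RefSeq tables of GRCm38.p6, and 17274 of 21631 genes had a listed start. Of 2260 listed symbols 5 were not matched. No genome sequence was used, so motifs were searched in promoters and not around peaks. Genes named follow a rule: Mtor, Myc, the highest shared, KO-only and WT-only genes, and, for each list, up to 3 shared genes, 3 KO-only genes and 2 WT-only genes. A few genes that the rule names are not reported here. Further members are named from the list counts and were chosen after their values were seen. The peaks compared, the gene lists and the alternatives were chosen with earlier results of these data known.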

Additional observations from a re-analysis of the deposited data

Results flagged for a closer look

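Peaks on chromosome Y were outside the comparison. The WT MYC list held 113 of them and the KO list 75, although the KO list was longer on all other chromosomes together.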

How the results depend on the processing

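Equal numbers of peaks moved most results. The shared share became 30.0% of WT and 29.0% of KO peaks, KO had 23.1% at promoters and 45.1% unmarked, KO-only genes numbered 1193 and WT-only genes 929 (ratio 1.28), and CACGTG was in 9.73% of KO-only promoters. KO minus WT members became -3 for cytosolic ribosomal proteins, -3 for mitochondrial ribosomal proteins, -3 for the proteasome, -1 for HSC identity and -1 for HSC markers. With the 2000 highest peaks the shared shares were 27.8% and 27.2%. WT then had 24.2% at promoters and 18.4% unmarked, KO 18.0% and 41.0%, and 215 genes were shared and 228 KO only (ratio 0.626). There 4 lists had more members in KO, and KO minus WT became -1 for MYC core targets, nucleotide synthesis, the mTOR pathway (where the WT members include the targeted gene Mtor), P-TEFb and lysosome genes. It became -2 for DNA replication and the respiratory chain, -3 for ribosome biogenesis, both ribosomal protein lists and HSC identity, and -4 for translation factors. These list counts for the 2000 highest peaks, and the following settings marked as added, were chosen after seeing the data. With equal numbers of promoter peaks (added) the shared shares were 50.0% and 48.3%, with 1079 KO-only and 967 WT-only genes (ratio 1.12), and KO minus WT was -6 for cytosolic ribosomal proteins, -3 for mitochondrial ribosomal proteins, -4 for the proteasome, -1 for HSC identity and -1 for HSC markers.

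The shared shares were 30.5% and 12.1% with a reciprocal overlap of 50% (rank correlation 0.49), 44.0% for WT with midpoints within 500 bp, 71.6% and 31.0% for promoter peaks, and 44.0% and 17.0% without distal peaks found in all 12 lists (added). With a score of at least 100 they were 50.9% and 16.1%, with 404 shared, 1303 KO-only and 162 WT-only genes. A window of 2500 bp gave promoter shares of 26.1% and 22.8% and unmarked shares of 37.6% and 50.9%. A window of 250 bp gave promoter shares of 15.6% and 15.6%, with 299 WT-only genes. Unmarked shares were 50.3% and 59.5% with ATAC-seq library 1 alone, and 37.5% and 50.3% with any ATAC-seq library (WT first). The causes were not tested. No paired analysis was possible because each genotype had 1 MYC library and no test was made. For the same reason no replicate could be left out. Depth is unknown, so a peak missing from the shorter WT list may lie under its detection limit.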

Other observations

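Some MYC peaks away from gene starts overlapped a peak in every one of the 12 lists, whatever the antibody or assay. There were 189 of them in WT and 185 in KO, which is 2.15% and 0.838% of the lists, but 49% of the 100 highest WT peaks and 27% of the 100 highest KO peaks. The highest lay at chr1:24611502-24616241 and chr2:98666081-98667516, each with a score of 3100 in both MYC lists. Scores of the 193 shared pairs at such sites had a Spearman correlation of 0.73, against 0.28 over the other 3826 pairs. This description was chosen after the data were seen.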
